A study of Mus musculus with 8 samples.

Results

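A set of 1252 windows of 5 kb, out of 474385 on chromosomes 1 to 19 that held a tag in any library (0.264%), passed a threshold of H3K9me3 enrichment with 1 antibody lot, lot 58206 of an Abcam antibody, 6 days after the start of the treatment that deletes *Setdb1* (*T* = 6d), and not before it. Tags were assigned to windows by the midpoint of their interval, and the level of a window is given relative to the median window of the same library. Members were selected on the lot 58206 tags alone: the library of *T* = 6d had to reach 3 times its median, which was 48 tags or more, and the *T* = 0 library had to stay below 2 times its median, which was fewer than 32 tags. Of all windows, 2.43% reached 3 times the median of this lot at *T* = 6d and 1.29% did so at *T* = 0. The values of lot 58206 are therefore given as a description only. The same windows in the other 2 antibody preparations took no part in the choice.

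The libraries came from JM8 ES cells of the C57BL/6N strain that carry a conditional *Setdb1* allele, a *tm2* null allele and a CreERT2 recombinase expressed from the ubiquitous *Rosa26* locus, so all groups share these alleles. The sample labels name the genotype *tm1a/tm2* before and *tm1c/tm2* after recombination, where the study's methods name it *tm1c/tm2* and *tm1d/tm2*. Untreated cells (*T* = 0) were compared with cells exposed to 4′OHT (0.8 μM) for 48 h, sampled when the exposure ended (*T* = 2d) and after further culture without it (*T* = 4d and *T* = 6d), with days counted from the start of exposure. A gifted antibody resembling an Upstate product (Upstate-type antibody, lot 4861) was used at all 4 times, and lots 58206 and 638466 of the Abcam antibody at *T* = 0 and *T* = 6d. The cell lines are clones, and the share of cells that escaped recombination was not measured here. ChIP-seq does not measure *Setdb1* expression or ES cell markers, so neither was checked, and control cells and input chromatin were not analysed here.

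There is 1 library per antibody and time, so each test below compares libraries rather than conditions, and intervals cover counting error only. The files hold 6887819 tags in each Upstate-type library, 8503927 in each library of lot 58206 and 12194174 in each of lot 638466, with 97.4 to 97.7% on chromosomes 1 to 19. The median window held 9 or 10 Upstate-type tags, 16 tags of lot 58206 and 25 of lot 638466.

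Setdb1 is a methyltransferase that places trimethyl groups on lysine 9 of histone H3. The mark is a hallmark of silent chromatin, is bound by HP1 proteins, and in ES cells covers endogenous retroviruses, imprinted regions and some silenced genes. An antibody against the mark pulls down chromatin fragments, and the number of sequenced tags in a region relative to the rest of the library is read as its enrichment.

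With lot 58206, the members held a median of 28 tags at *T* = 0 (range 4 to 31) and 55 at *T* = 6d (48 to 161). These are 1.75 and 3.44 times the medians of the libraries, with a maximum of 10.1 times at *T* = 6d. Most members therefore stood above the median window before deletion, and 16 of the 1252 (1.28%) were below it. Members made up 10.9% of the 11537 windows at 3 or more times the median at *T* = 6d. Of the 11537, another 5407 (46.9%) stood between 2 and 3 times the median at *T* = 0, and 4878 (42.3%) were at 3 times or more at both times. Members just inside the *T* = 6d threshold, 301 windows with 48 to 50 tags, and windows just outside it, 362 with 45 to 47 tags, had median Upstate-type tags of 11 and 12 at *T* = 0. At the *T* = 0 threshold, 545 members with 29 to 31 tags and 789 windows outside with 32 to 34 tags had medians of 12 and 11.

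**Figure D1:**
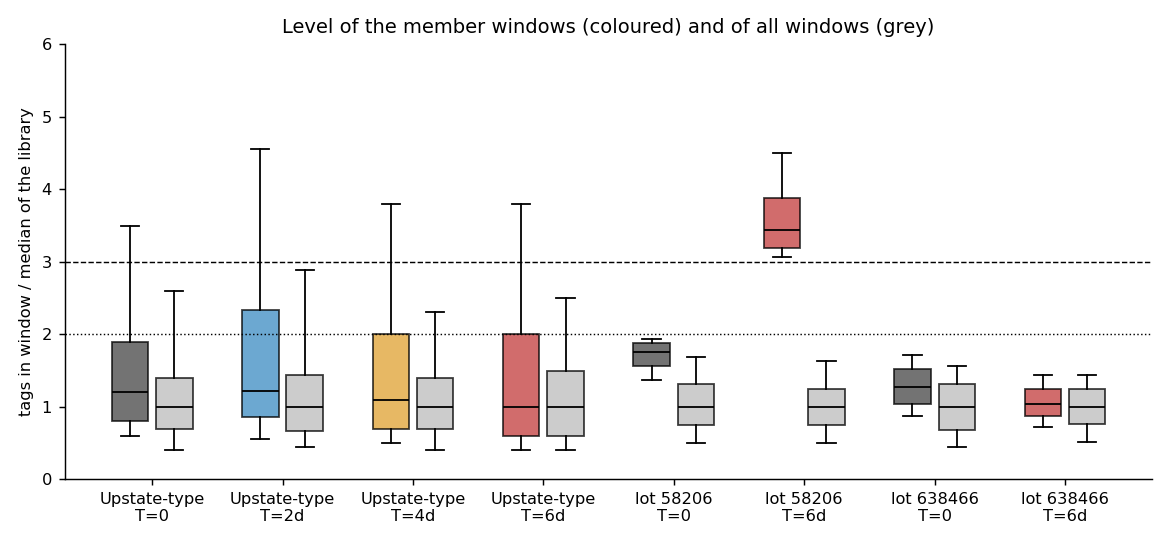
Level of the 1252 members (coloured, left box of each pair) and of all 474385 windows (grey, right box) in the 8 libraries, as tags in the window divided by the library median. Boxes span the quartiles with the median as a line and whiskers from the 10th to the 90th percentile, and the dashed and dotted lines mark 3 and 2 times the median; the shift at *T* = 6d with lot 58206 is fixed by the choice of windows, and the medians of the members lie between 1.0 and 1.28 times in the other 6 libraries.

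The question asked of the other antibodies was whether these windows also gained tags after deletion. With the Upstate-type antibody the median member held 12, 11, 11 and 10 tags from *T* = 0 to *T* = 6d. Their summed tags were 21591, 23515, 21831 and 20530. No overall gain was seen by *T* = 6d. Relative to *T* = 0, the sum was 1.09 times as large after 2 days (95% interval 1.07 to 1.11), 1.01 times after 4 days (0.992 to 1.03) and 0.951 times after 6 days (0.933 to 0.969). At *T* = 6d, 432 members held more tags than at *T* = 0, 745 held fewer and 75 held equal numbers. The 3 later time points share the *T* = 0 library. The direction at *T* = 6d depended on how the windows were drawn, since the ratio was 1.12 with windows of 2 kb and 1.03 with windows of 10 kb.

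With lot 638466 the members held a median of 32 tags at *T* = 0 and 26 at *T* = 6d, with sums of 40462 and 33701. The sum at *T* = 6d was 0.833 times that at *T* = 0 (0.821 to 0.845). Tags were fewer at *T* = 6d in 876 members and more in 313. None of the 1252 reached 3 times the median of this lot at either time, where an exact interval allows up to 0.294% of them and 0.117% and 0.0232% of all windows did so. Scaled to the tags of background windows, the ratio was 0.757.

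Every window of a later library was set against the untreated library of that antibody with Fisher's exact test (two-sided), and was called where *P* was below 0.01 and the tags differed by more than 1.5-fold. With the Upstate-type antibody at *T* = 2d, 25 members were called higher (2.00%, exact interval 1.30 to 2.93%) against 0.824% of all windows, and 7 lower (0.559%) against 0.827%. At *T* = 4d, 29 were higher (2.32%, against 1.1%) and 9 lower (0.719%, against 2.17%). At *T* = 6d, 36 were higher (2.88%, 2.02 to 3.96%, against 2.05%) and 37 lower (2.96%, 2.09 to 4.05%, against 3.19%). By this call the shares at *T* = 6d lay near those of all windows in both directions, but this depended on the setting. With Benjamini-Hochberg adjustment of Fisher's exact test, 1.60% were higher (0.978 to 2.46%, against 0.750%) and 0.639% lower (0.276 to 1.26%, against 1.68%), with 2-kb windows 1.51% were higher (against 0.728%) and 0.670% lower (against 1.32%), and with 10-kb windows 5.92% were higher (4.50 to 7.62%, against 4.00%) and 3.07% lower (2.06 to 4.37%, against 5.37%). Members were higher more often than all windows at *T* = 2d and *T* = 4d by the first call, but by fold change alone fewer members were higher at *T* = 4d (15.3%, against 21.6%) and *T* = 6d (15.0%, against 24.1%), and more were lower at *T* = 6d (32.7%, against 23.6%). Windows with few tags can hardly be called. Among members with 20 or more tags in both libraries together, 3.05% were higher and 0.254% lower at *T* = 2d, where 1.68% and 1.32% of all windows of that depth were, and 3.72% were higher and 0.665% lower at *T* = 4d, where 1.75% and 3.66% were. Among the 707 members of that depth at the last time, 5.09% were higher (3.59 to 6.98%) and 3.96% lower (2.65 to 5.67%) at *T* = 6d, where 3.53% and 5.17% of all such windows were.

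Lot 638466 had 2 members called higher (0.160%, 0.0194 to 0.576%) against 1.14% of all windows, and 52 called lower (4.15%, 3.12 to 5.41%) against 2.03%. With Benjamini-Hochberg adjustment of Fisher's exact test 4 were lower (0.319%, 0.0871 to 0.816%), against 0.447% of all windows, so the larger share of lower calls was not kept. All but 1 of the 1252 had 20 or more tags in the 2 libraries of this lot together. Of all windows of that depth, 1.19% and 2.12% were higher and lower. No member was called higher at *T* = 6d with both the Upstate-type antibody and lot 638466, against 0.0354% of all windows, and 2 (0.160%) were called lower with both, against 0.722%. The Upstate-type antibody called 66 members higher at 1 or more of the 3 times (5.27%, against 3.31%), of which 7 were higher at all 3 (0.559%, against 0.1%), and 49 lower at 1 or more (3.91%, against 4.34%).

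For scale, the 944 windows that met the reverse rule with lot 58206 (at least 3 times the median at *T* = 0 and less than 2 times at *T* = 6d) behaved unlike the members in both other preparations. Their summed Upstate-type tags came to 0.723, 0.403 and 0.317 of the untreated sum after 2, 4 and 6 days, and 806 of them (85.4%, 83.0 to 87.6%) were called lower at *T* = 6d. With lot 638466 the ratio was 0.413, and 712 (75.4%) were called lower. The fall of these lost windows in lot 58206 was thus met by a fall with both other preparations, while the rise of the members was met by 0.951 and 0.833 times the *T* = 0 tags. The 4878 windows enriched at both times with lot 58206 had ratios of 0.811 and 0.757, and 9.82% of them were called lower with lot 638466. Fewer tags with lot 638466 were therefore not particular to the members. The Upstate-type ratio of the members, 0.951, was above 1 with windows of 2 or 10 kb and with the stricter rule.

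The members did not all have the same level with the Upstate-type antibody. At *T* = 0, 170 (13.6%) stood at 3 or more times the median, against 8.65% of all windows, 654 (52.2%) between 1 and 3 times, and 428 (34.2%) below it. After 2, 4 and 6 days the shares at 3 times or more were 18.4%, 14.5% and 14.7%, against 9.69%, 7.85% and 8.46% of all windows. The 170 members already enriched with this antibody had a median of 42 tags at *T* = 0 and 41 at *T* = 6d. In the 428 below the median the medians were 7 and 6. Their summed tags were 1.21, 1.19 and 1.11 times the untreated sum after 2, 4 and 6 days (1.06 to 1.17 at the last). Of them, 12 (2.80%, 1.46 to 4.85%) were called higher at *T* = 6d, against 2.05% of all windows, and none lower, against 3.19%. With fewer than 10 tags at *T* = 0 they could hardly be called lower. These groups were cut on the untreated library that the ratios use, so the low group is set low at *T* = 0 by the choice. The rule fixed a rise with lot 58206 in both, from medians of 28 to 56.5 and from 28 to 55.

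The windows with most Upstate-type tags at *T* = 0 were chr3:36465001-36470000, chr2:26245001-26250000 and chr10:127525001-127530000 (all positions are in mm9). The first held 145, 198, 151 and 139 tags over the time course, 23 and 48 with lot 58206, and 30 and 21 with lot 638466. The second held 131, 112, 116 and 120 Upstate-type tags, 31 and 66 of lot 58206, and 37 and 24 of lot 638466. The third held 123, 142, 123 and 100, then 27 and 60, and 39 and 16. All 3 were strongly enriched throughout the Upstate-type time course, with no call at *T* = 6d, and only the third was called with lot 638466, as lower (ratio 0.410, Fisher's exact test, *P* = 0.00267).

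The lot 58206 signal was next described within the windows. In each window the densest 500 bp of the lot 58206 *T* = 6d library was found, and the 1 kb centred on it is called the core, and the stretches from 2 to 5 kb on both sides are called its flanks. This choice was made after the data were seen. At *T* = 6d the core held a median of 56.6% of the tags of its window, and in 849 members (67.8%) it held at least as many tags as the rest of the window. A core placed on the densest tags holds a raised share by construction, and over all windows, most of them with far fewer tags, the median was 33.3% and 14.8% held as many as the rest. The mean profile of the members was 600 bp wide midway between its top and the surroundings, at *T* = 6d as at *T* = 0, and tags are 300 bp long. This was not particular to the members. In the windows enriched at both times the profile was 700 bp wide at *T* = 0 and 600 bp at *T* = 6d, and in 50.6% of them the core held at least as many tags as the rest of the window.

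The cores were present with lot 58206 before deletion. Scaled to the median of the library per kb, the core level was 3.71 at *T* = 0 and 10.9 at *T* = 6d, while the flanks were at 1.25 and 1.33. At *T* = 0, 839 of the 1252 cores (67.0%, 64.3 to 69.6%) already stood at 3 or more times the median, against 5.36% of the cores found in the same way in all windows. The densest 500 bp of the *T* = 0 library lay within 500 bp of that at *T* = 6d in 962 members (76.8%, against 28.1% of all windows), at a median distance of 131 bp. In the windows enriched at both times the share was 76.7% and the median distance 135 bp, so this was not particular to the members. Most members thus had a core at 3 or more times the median before deletion, and newly enriched describes them only as 5-kb windows, by the rule. The summed core tags at *T* = 6d were 2.93 times as many as at *T* = 0. Because a core is placed where tags of the *T* = 6d library are densest, its *T* = 6d value is raised by the choice, and over all windows the same ratio was 1.56. These lot 58206 values were used by the rule and are a description.

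With the Upstate-type antibody the cores lay in a trough. At *T* = 0 the core level was 0.720 times the median per kb and the flanks were at 2.16, a core to flank ratio of 0.333 (95% interval 0.318 to 0.349). The core was lower than the flanks in 1084 members (86.6%), against 49.6% of all windows, where the ratio was 1.05. The ratio was 0.316 after 2 days, 0.287 after 4 days and 0.252 after 6 days (0.238 to 0.266), when 1133 cores (90.5%) were below their flanks. At *T* = 0, 415 cores (33.1%) held no Upstate-type tag, against 15.7% of all windows, and at *T* = 6d 598 (47.8%) did not, against 16.2%. The densest 500 bp of the Upstate-type library lay within 500 bp of the lot 58206 core in 82 members at *T* = 0 (6.55%, 5.24 to 8.06%), less often than in all windows (23.7%).

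Tags of the Upstate-type antibody fell in the cores by *T* = 4d and *T* = 6d and not in the flanks. Relative to *T* = 0, summed core tags were 1.01 times as many after 2 days (0.946 to 1.08), 0.887 times after 4 days (0.829 to 0.950) and 0.759 times after 6 days (0.707 to 0.815). The flank ratios were 1.06 (1.05 to 1.08), 1.03 (1.02 to 1.05) and 1.0 (0.989 to 1.02). With lot 638466 the cores were above the flanks at *T* = 0, at 1.45 against 1.22 times the median, and below them at *T* = 6d, at 0.955 against 1.09. Its core ratio of *T* = 6d to *T* = 0 was 0.658 (0.637 to 0.680) and its flank ratio 0.897 (0.886 to 0.910). Cores at 3 or more times the median of this lot numbered 31 (2.48%, against 1.27% of all windows) before and 3 (0.240%, against 0.452%) after deletion. With the Upstate-type antibody they numbered 25 (2.00%, against 11.5%) and 39 (3.12%, against 12%). Over all windows the core ratios at *T* = 6d were 1.01 with the Upstate-type antibody and 0.984 with lot 638466. In the windows enriched at both times with lot 58206 they were 0.755 (0.738 to 0.773) and 0.666 (0.657 to 0.675), close to those of the members. Both other preparations thus had fewer tags after deletion in the cores of the members, and this was not particular to them.

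**Figure D2:**
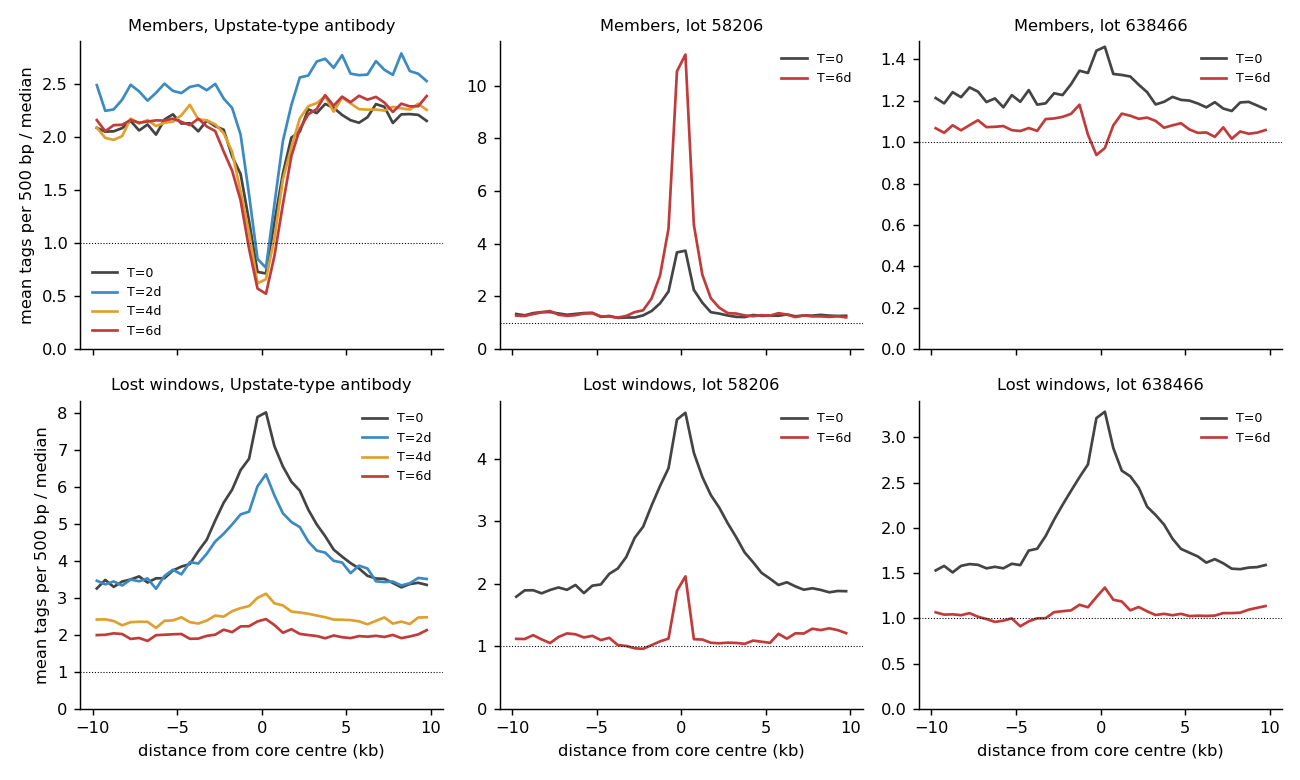
Mean tags per 500 bp, relative to the median of each library, from 10 kb left to 10 kb right of the core centre, in the 1252 members (top) and the 944 lost windows (bottom) with the 3 antibody preparations; lines are time points and vertical scales differ between panels. In the members the narrow lot 58206 peak coincides with a trough of the Upstate-type antibody at all times, and with lot 638466 a low peak at *T* = 0 is replaced by a dip at *T* = 6d. In the lost windows the centre lies within 500 bp of the densest *T* = 0 tags of lot 58206 in only 30.2%, against 28.1% of all windows, so the bottom panels are not centred on the signal that was lost.

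The trough was not limited to members with few Upstate-type tags. In the 170 members at 3 or more times the Upstate-type median at *T* = 0, the core to flank ratio at that time was 0.287 (0.261 to 0.315), and in the 428 below the median it was 0.313 (0.281 to 0.349). The windows named above for their Upstate-type tags differed in this. On chromosome 3 the core held 12 Upstate-type tags at *T* = 0 and its flanks, 6 times as long, held 102. On chromosome 2 the core held 1 tag and its flanks 149, while lot 58206 had 23 and 60 tags in the core at *T* = 0 and *T* = 6d. On chromosome 10 the core held 1 tag and the flanks 152, with 14 and 40 lot 58206 tags in the core. The trough was also seen in the 4878 windows enriched at both times with lot 58206, at a ratio of 0.454 at *T* = 0 (0.447 to 0.461), and was therefore not particular to the members.

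The wider surroundings of the members held more Upstate-type tags than the genome as a whole, but fewer at *T* = 0 than those of the other sets. From 20 to 100 kb away, the mean Upstate-type level was 2.04 times the median at *T* = 0 and 2.03 at *T* = 6d, where the mean over all windows was 1.42 at both times. Around windows enriched at both times it was 2.59 at *T* = 0, and around lost windows 2.35. For lot 58206 it was 1.27 and 1.26, and for lot 638466 it was 1.18 and 1.06. A neighbouring window at 3 or more times the Upstate-type median at *T* = 0 was found next to 437 members (34.9%), against 12.3% of all windows, next to 567 lost windows (60.1%) and next to 61.1% of the windows enriched at both times.

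A few members rose from a low level with lot 58206, and these were looked at one by one. The 5 with the largest ratio of *T* = 6d to *T* = 0 tags were chr3:93930001-93935000, chr18:10040001-10045000, chr3:96120001-96125000, chr17:17640001-17645000 and chr9:57325001-57330000. They went from 4 to 61, 14 to 161, 6 to 49, 15 to 105 and 19 to 122 tags. The largest of these changes, at chr3:93930001-93935000, had no counterpart in the other preparations, with 6, 3, 8 and 6 Upstate-type tags over the time course and 15 and 13 tags of lot 638466.

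The other 4 were called higher with the Upstate-type antibody at *T* = 4d, and 3 of them at *T* = 6d. The one on chromosome 18 held 21, 39, 70 and 74 Upstate-type tags over the time course, a ratio of 3.52 at the last time (95% interval 2.15 to 6.03, Fisher's exact test, *P* = 4.25e-08). Its lot 638466 tags were 32 and 39, within counting error (Fisher's exact test, *P* = 0.477). On chromosome 17 the window held 9, 19, 25 and 27 Upstate-type tags (ratio 3.00, Fisher's exact test, *P* = 0.00393), with 18 and 13 of lot 638466. Its Upstate-type tags went from 2 to 18 in the core and from 22 to 74 in the flanks, which reach beyond the window. That on chromosome 9 held 19, 31, 47 and 42 tags (ratio 2.21, Fisher's exact test, *P* = 0.00444), with 27 and 20 of lot 638466. At chr3:96120001-96125000 there were 13, 10, 33 and 23 tags, with a ratio of 2.54 after 4 days (Fisher's exact test, *P* = 0.00453) and 1.77 after 6 days (*P* = 0.132), and lot 638466 had 15 and 10.

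**Figure D3:**
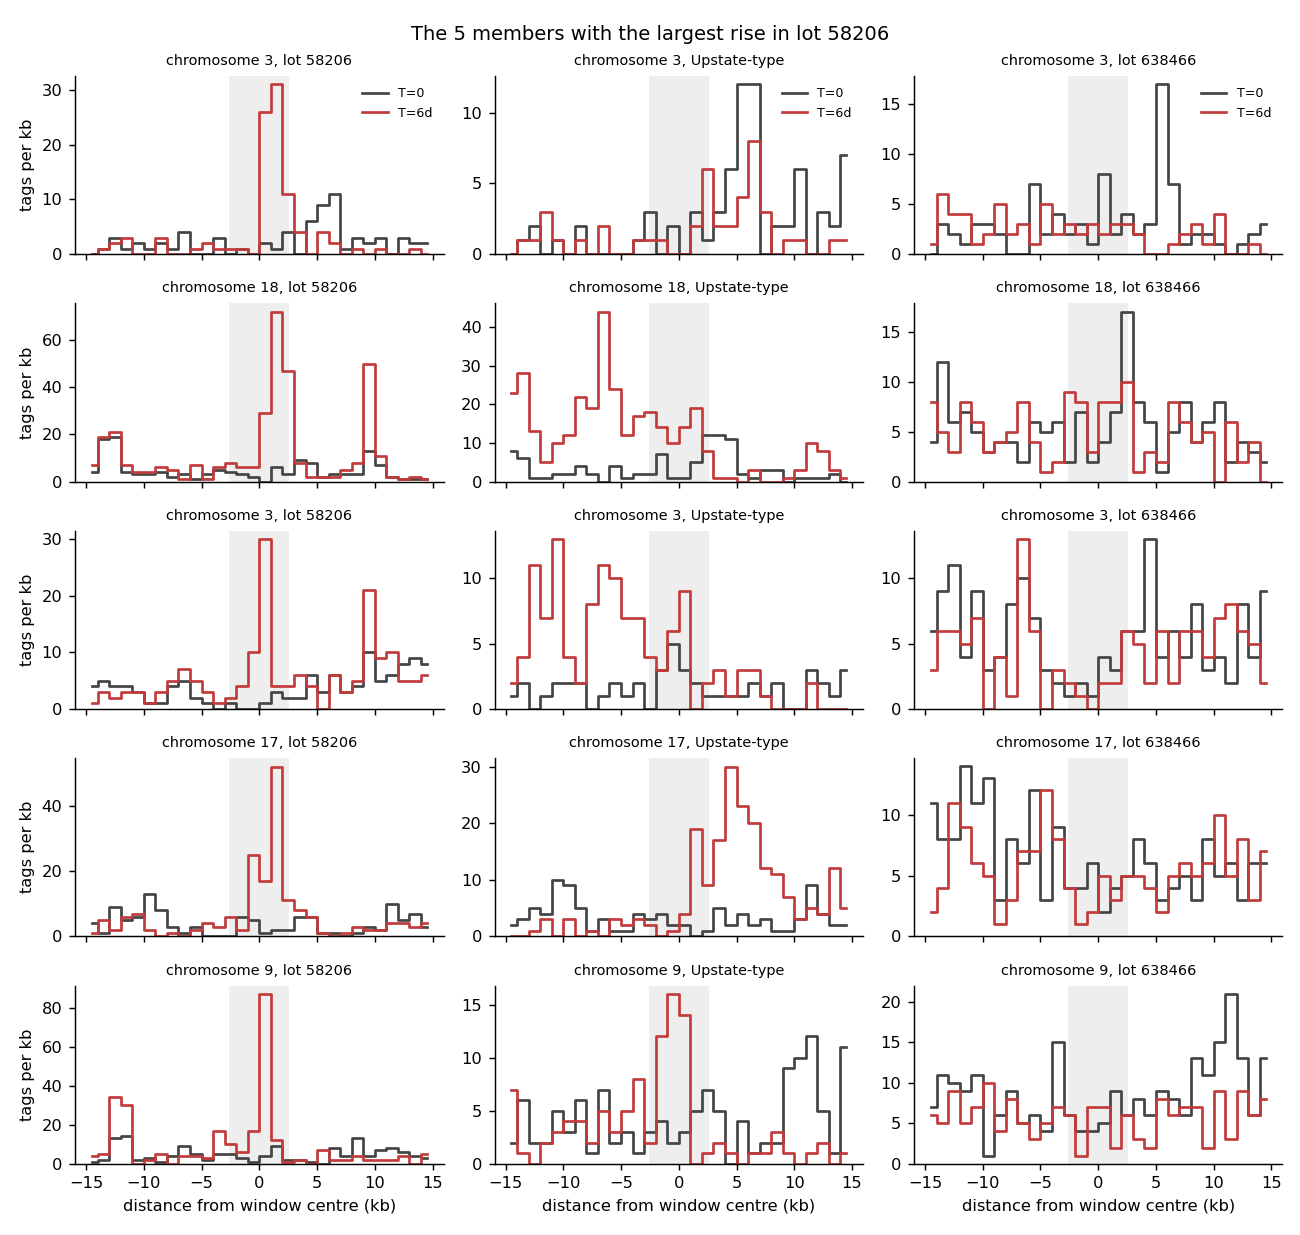
Tags per kb from 15 kb left to 15 kb right of the window centre in the 5 members with the largest lot 58206 ratio, at *T* = 0 (dark) and *T* = 6d (red), for lot 58206 (left), the Upstate-type antibody (middle) and lot 638466 (right); the window is shaded and vertical scales differ. The lot 58206 tags at *T* = 6d pile up in a few kb within or at the edge of the window, whereas the added Upstate-type tags on chromosomes 18 and 17 and in the lower chromosome 3 panel spread over several kb.

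The 16 members that stood below the lot 58206 median at *T* = 0 include 4 of these 5 windows. With the Upstate-type antibody 7 of the 16 were called higher at *T* = 4d (43.8%, 19.8 to 70.1%, against 1.1% of all windows). At *T* = 6d 3 were higher (18.8%, 4.05 to 45.6%, against 2.05%) and 2 lower (12.5%, 1.55 to 38.3%, against 3.19%). The 4 windows supplied 3 of the 7 calls and 2 of the 3. Summed over the 16, Upstate-type tags were 1.69 times the untreated sum after 4 days (1.43 to 2.01) and 1.34 times after 6 days (1.12 to 1.61), although after 6 days 7 of the 16 held more tags and the median was 11 at both times. Without the 4 windows the ratios were 1.38 (1.12 to 1.69) and 0.958 (0.767 to 1.20), so the rise at *T* = 6d rested on them. In the 1236 other members the ratios were 1.0 (0.985 to 1.02) and 0.947 (0.929 to 0.965). With lot 638466 the ratio in the 16 was 0.950 (0.820 to 1.10), and none was called in either direction. Their Upstate-type core to flank ratio was 0.822 at *T* = 0 (0.593 to 1.12), against 0.328 (0.312 to 0.344) in the others, then 0.646 (0.456 to 0.893), 0.652 (0.479 to 0.872) and 0.842 (0.621 to 1.12) after 2, 4 and 6 days. With a rule of at least 4 times the median at *T* = 6d and less than 1.5 times at *T* = 0, 27 windows were left, of which 6 (22.2%, 8.62 to 42.3%, against 2.05% of all windows) were called higher with the Upstate-type antibody at *T* = 6d. This rule is a narrower choice on the same lot 58206 values, and 3 of the 6 are windows described above. Without those 3 windows the other 24 had 3 higher calls and a summed Upstate-type ratio of 1.24 at *T* = 6d (1.08 to 1.43).

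Among the members called higher with the Upstate-type antibody, the largest *T* = 6d ratios were at chr8:122105001-122110000, chr19:9065001-9070000 and chr17:17965001-17970000. The first held 2, 18, 40 and 35 Upstate-type tags, a ratio of 17.5 (interval 4.50 to 150, Fisher's exact test, *P* = 1.02e-08). Lot 58206 had 24 and 52 tags there, and lot 638466 had 33 and 30. The second held 5, 13, 15 and 42 Upstate-type tags (ratio 8.40, Fisher's exact test, *P* = 2.46e-08), with 31 and 32 of lot 638466. The third held 12, 30, 40 and 70 (ratio 5.83, Fisher's exact test, *P* = 4.11e-11), with 38 and 33 of lot 638466. The higher Upstate-type call at *T* = 6d was part of the rule that picked these 3 windows, and none of them was called with lot 638466. On chromosome 8 the lot 58206 core, 1 kb of the 5-kb window, went from 0 to 13 Upstate-type tags, while its flanks went from 12 to 12. The cores on chromosomes 19 and 17 went from 2 to 2 and from 1 to 1, while their flanks went from 5 to 27 and from 17 to 70.

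The 2 members called higher with lot 638466 were chr13:74600001-74605000 and chr17:67385001-67390000. The first went from 7 to 25 tags of lot 638466 (ratio 3.57, Fisher's exact test, *P* = 0.00210) and from 22 to 52 of lot 58206, with 6, 5, 6 and 3 Upstate-type tags. The second went from 25 to 50 (ratio 2.00, Fisher's exact test, *P* = 0.00523) and from 19 to 54, with 11, 8, 21 and 17 Upstate-type tags. Neither was called with the Upstate-type antibody.

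Among the members called lower with the Upstate-type antibody, the lowest *T* = 6d to *T* = 0 ratios were at chr2:151805001-151810000, chr14:87540001-87545000 and chr18:52925001-52930000. They held 12, 12 and 11 tags at *T* = 0 and 1 tag each at *T* = 6d. The first had already fallen to 2 tags at *T* = 4d, while the others still held 8 and 10. With such low numbers the ratio of the first, 0.0833, has an interval of 0.00195 to 0.563. With lot 58206 the same windows went from 29 to 53, 31 to 51 and 30 to 61 tags, and with lot 638466 from 35 to 37, 35 to 30 and 43 to 28, none of which was called.

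Members were mostly solitary along the chromosomes. They formed 1227 runs of adjacent windows, of which 1202 were single windows, 25 were pairs and none was longer, so 50 members (3.99%, 2.98 to 5.23%) touched another member. The median distance to the nearest member was 405 kb, and 102 members (8.15%) had another within 20 kb. The lost windows were grouped more tightly, with 220 (23.3%, 20.6 to 26.1%) touching another, a longest run of 9 and a median distance of 182.5 kb, although they are fewer. Of the 4878 windows enriched at both times, 589 (12.1%, 11.2 to 13.0%) touched another, and the longest run was 17.

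Members were still closer together than an even spread of single windows. The next window to the right of a member was itself a member in 2.00% of cases, 7.57 times the 0.264% over all windows. At distances of 50 kb and 500 kb the shares were 0.561% and 0.731%, and at 2 Mb the share was 0.251%, 0.950 times that over all windows. These shares rest on 25, 7, 9 and 3 members. A window at 3 or more times the lot 58206 median at *T* = 6d was next to 295 members (23.6%, against 4.69% of all windows), and one at this level at *T* = 0 was next to 124 (9.90%, against 2.49%).

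**Figure D4:**
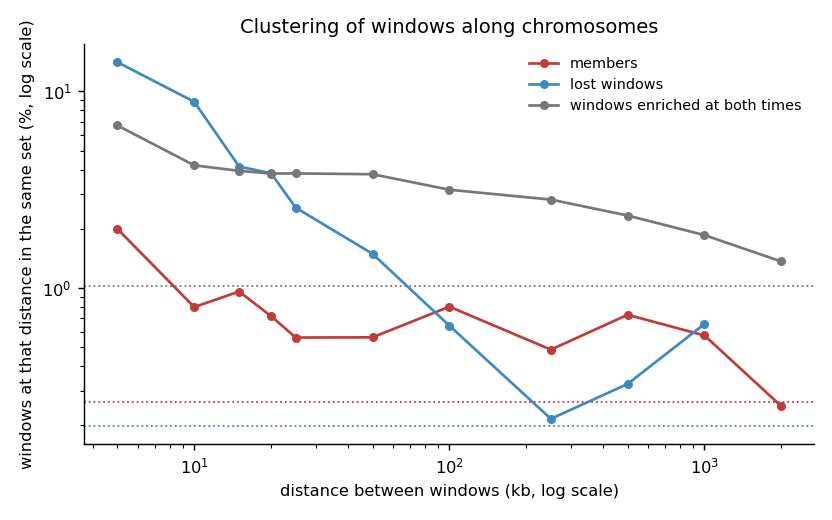
Share of windows at a given distance to the right that belong to the same set, on log scales, for members, lost windows and windows enriched at both times with lot 58206; dotted lines give the share of each set among all windows, and distances at which none was found are not drawn. For members the share falls from 2.00% at 5 kb to 0.251% at 2 Mb, near their overall 0.264%, and lost windows start higher, at 14.1%.

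The 5 pairs with most lot 58206 tags at *T* = 6d were chr8:129105001-129115000, chr16:4590001-4600000, chr11:70025001-70035000, chr1:6200001-6210000 and chr17:12930001-12940000. Their lot 58206 tags went from 52 to 152, 49 to 150, 57 to 145, 52 to 135 and 55 to 133. The pair on chromosome 8 was rich in Upstate-type tags at all times, with 137, 140, 144 and 166, and had 88 and 59 of lot 638466. The core of its second window was no trough, with 37 Upstate-type tags at *T* = 0 and 38 at *T* = 6d against 47 and 60 in flanks 6 times as long, where lot 58206 had 8 and 53 in the core. The pair on chromosome 16 held 36, 29, 27 and 43 Upstate-type tags, with 0 and 1 of them in the core of its second window at *T* = 0 and *T* = 6d, where lot 58206 had 6 and 61. As pairs, none was called at *T* = 6d with the Upstate-type antibody (Fisher's exact test, *P* from 0.108 to 1). Taken singly, 1 window of the pair on chromosome 16 was called higher and 1 of the pair on chromosome 17 lower. With lot 638466 the pair on chromosome 11 fell from 86 to 53 (Fisher's exact test, *P* = 0.00643).

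Of 2426 bins of 1 Mb, 837 (34.5%) held a member, and 93 held 3 or more, with 326 members (26.0%) in them. The variance of the number per bin was 1.46 times its mean, against 2.41 for the lost windows and 4.26 for the windows enriched at both times. A window enriched at both times lay in 77.7% of the bins with a member and in 58.5% of all bins. The most members were in chr7:19000001-20000000 and chr19:5000001-6000000, with 6 each, and 5 bins held 5 members, the first of them chr6:83000001-84000000. The 6 members on chromosome 7 together went from 167 to 359 tags of lot 58206, from 98 to 70 of the Upstate-type antibody (ratio 0.714, 0.518 to 0.981) and from 211 to 148 of lot 638466 (0.701, 0.565 to 0.870). The 6 on chromosome 19 went from 162 to 343, from 153 to 128 and from 227 to 134. Their Upstate-type ratio was 0.837 (0.656 to 1.06) and their lot 638466 ratio 0.590 (0.473 to 0.734). The 5 members in the bin on chromosome 6 went from 141 to 287, from 80 to 90 and from 219 to 154. Their Upstate-type ratio was 1.125 (0.823 to 1.54) and their lot 638466 ratio 0.703 (0.568 to 0.868). The members of the named bins thus had fewer tags at *T* = 6d with lot 638466. Of their Upstate-type ratios, only that on chromosome 7 had an interval that lay below 1.

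Chromosomes differed in how many members they held. The number per 1000 windows was lowest on chromosome 8, at 1.57 (95% exact Poisson interval 1.12 to 2.15), and highest on chromosome 19, at 3.97 (2.91 to 5.30), followed by chromosome 11, at 3.88 (3.13 to 4.76), with a median of 2.57 over 19 chromosomes. The intervals of neighbours in this order overlapped. Across the 19 chromosomes the number rose with the GC content of the chromosome in GRCm38, with Pearson's r = 0.738 and Spearman's rho = 0.744, and r = 0.647 without the 2 chromosomes farthest from the median GC content. For the windows enriched at both times r was 0.864, and for lost windows 0.0775. The points share the libraries and differ in length, and the part of base composition in the lot 58206 values was not tested. Chromosome 8 held the fewest members and the most lost windows per 1000, at 3.58. Along the chromosomes, divided into 10 parts from the centromere, members ranged from 2.09 per 1000 windows in the fifth part to 3.25 in the ninth.

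**Figure D5:**
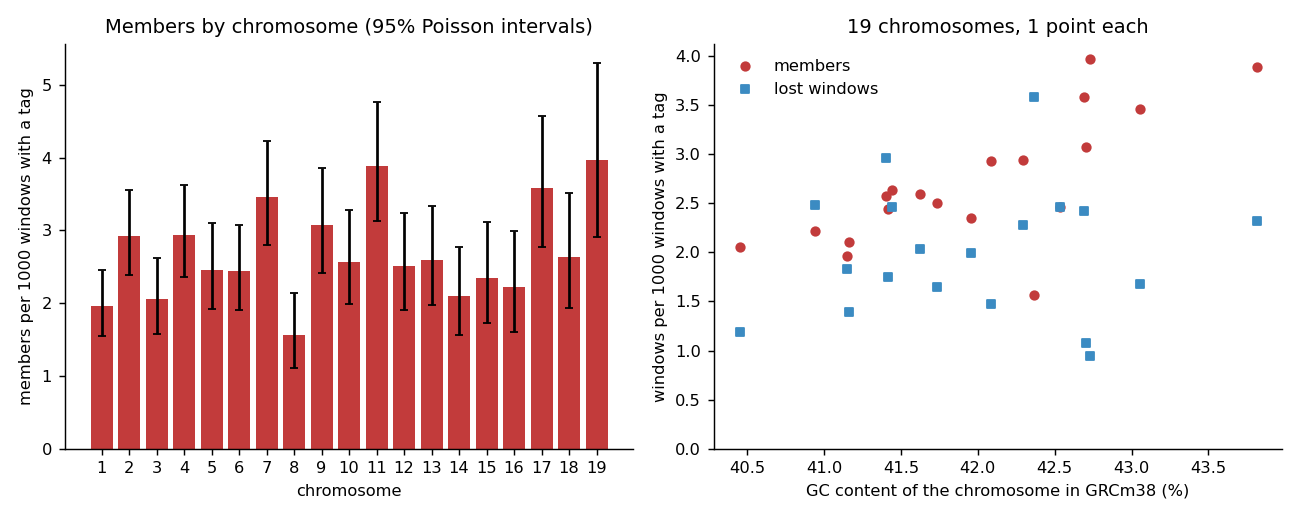
Left, members per 1000 windows with a tag on each chromosome, with 95% exact Poisson intervals as error bars, from 1.57 on chromosome 8 to 3.97 on chromosome 19. Right, members and lost windows per 1000 against the GC content of the chromosome, 1 point per chromosome; members rise with GC content (r = 0.738) and lost windows do not show this (r = 0.0775).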

How the data were processed

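H3K9me3 ChIP-seq tags were analysed in 8 libraries, 1 per antibody and time. The authors mapped tags uniquely, brought the libraries of each antibody to equal totals and deposited the tag intervals, a unit other than counts or signal, so tags were counted here. The aligner is not given in the sources used here. Every interval was 300 bp long, no start position was repeated, and the build is mm9 per the labels. The reference given was GRCm38, so no gene or sequence was assigned, and it served only for GC content. No column of per-sample values was set aside.

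Tags were counted by midpoint in 5-kb windows in Python 3.11.15 (scipy 1.17.1, pandas 2.3.3, numpy 2.4.6) and plotted with matplotlib 3.10.9. Libraries were tested against *T* = 0 of their antibody with Fisher's exact test (two-sided) at *P* below 0.01, unadjusted, and over 1.5-fold. Ratios have conditional binomial and shares Clopper-Pearson 95% intervals. The window test was tested on simulated data. Of 200 windows raised 3-fold, 146 (73%) were called higher with the Upstate-type antibody and 198 (99%) with lot 638466. Among the unchanged windows 3 and 5 were called higher. Smaller rises were not simulated, while summed lot 58206 tags of the members rose 2.14-fold, so how often such a rise would be called is not known. Members, sets and rules were chosen with earlier results of these data known.

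Regions were named by rule: the 5 longest runs (ties by lot 58206 *T* = 6d tags), the 5 largest lot 58206 ratios (1 tag added at *T* = 0), the 3 largest rises called with each other antibody, up to 5 called higher with both (there were none), the 3 largest called Upstate-type falls, the 3 fullest 1-Mb bins and the 3 windows with most Upstate-type tags. Alternatives were other windows, rules, scalings and call limits.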

Additional observations from a re-analysis of the deposited data

Results flagged for a closer look

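The change of the members differed between the Upstate-type antibody and lot 638466. The ratio of summed tags, *T* = 6d over *T* = 0, was 0.951 with the Upstate-type antibody and 0.833 with lot 638466, and the first ratio was 1.14 times the second (two-sided Fisher's exact test on the summed tags, *P* = 2.46e-27). In the 1-kb cores the ratios were 0.759 and 0.658, and the first was 1.15 times the second (Fisher's exact test, *P* = 0.000313). With 1 library per antibody and time, both tests compare libraries and cover counting error only.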

How the results depend on the processing

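No paired analysis was possible because each group holds 1 library. Values follow in the order: members; % higher with the Upstate-type antibody at *T* = 2d, 4d and 6d; % lower with it at *T* = 6d; % lower with lot 638466; summed *T* = 6d to *T* = 0 ratio with each; % touching another member, where these moved. Shares of all windows are in brackets. With 2-kb windows they were 4626, 0.692 [0.391], 0.951 [0.460], 1.51 [0.728], 0.670 [1.32], 1.36 [0.918], 1.12 (reversed) and 0.933. With 10-kb windows they were 4.55 [0.982], 3.70 [1.88] and 5.92% [4.00] higher, 3.07% [5.37] lower, 8.77% [3.57] lower with lot 638466, a ratio of 1.03 (reversed) and 2.85% touching. With at least 4 times the median at *T* = 6d and under 1.5 times at *T* = 0 they were 27 members, 3.70 [0.824], 22.2 [1.10] and 22.2% [2.05] higher, 0% [1.14] higher with lot 638466, 0% [3.19 and 2.03] lower with either, ratios of 1.44 (reversed) and 0.928, and 0% touching. Scaling to background windows gave 3.59% [1.72] higher at *T* = 2d, 9.90% [3.83] lower with lot 638466 and its ratio of 0.757. Fold change alone gave 17.7 [15.5], 15.3 [21.6] and 15.0% [24.1] higher, 32.7% [23.6] lower, and 2.72% [15.1] higher and 23.3% [11.9] lower with lot 638466, so that at *T* = 4d and *T* = 6d fewer members than all windows were higher. Benjamini-Hochberg adjustment gave 0.479 [0.140], 1.12 [0.295] and 1.60% [0.750] higher, 0.639% [1.68] lower, and 0% [0.0489] higher and 0.319% [0.447] lower with lot 638466. Shares at *T* = 6d near those of all windows were thus not kept with 2-kb or 10-kb windows or this adjustment, where more members were higher and fewer lower with the Upstate-type antibody, nor by fold change alone, where fewer were higher and more lower. The larger share of lower calls with lot 638466 was not kept with the adjustment. Within 20 kb, 8.15% had another member. With shifted windows, or without those over 20 times the median, values stayed within the intervals. Small windows hold fewer tags and the stricter rule left 27 members, but the cause of the shifts and of the reversals was not tested.

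Alternatives added after the data were seen centred cores on the *T* = 0 library (Upstate-type core to flank ratio 0.404, lot 638466 core ratio 0.690) or used 500-bp cores (lot 638466 core ratio 0.631, 80.0% of lot 58206 cores at 3 times the median at *T* = 0). Without the 5 windows of largest lot 58206 ratio, the Upstate-type ratio of the members below the lot 58206 median at *T* = 0 was 1.38 at *T* = 4d and 0.958 (reversed) at *T* = 6d. No replicate could be left out.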

Other observations

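On chromosome X, which was not among the chromosomes used, the median window of lot 58206 held 6 tags. With that median, 140 of 30776 windows (4.55 per 1000) met the rule of the members, 226 met the reverse rule and 401 were at 3 or more times the median at both times. With the medians of chromosomes 1 to 19, the numbers were 54, 2 and 19. In the 140 windows lot 58206 had 1218 tags at *T* = 0 and 2976 at *T* = 6d, the Upstate-type antibody 883 and 979, and lot 638466 1991 and 2056. In the 54 windows the sums were 1336 and 3111, 562 and 518, and 907 and 697.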
